A study of Mus musculus with 12 samples.

Results

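The granule proteins described here are encoded by 10 genes, which were picked by name from the gene column of both deposited tables, so that 10 of 50434 listed genes entered. The members were 4 genes of primary granules (Mpo, Elane, Prtn3 and Ctsg), 5 genes of secondary granules (Ltf, Camp, Ngp, Mmp8 and Chil3) and Mmp9, the tertiary granule member. All 10 had a row in the blood neutrophil (PMN) table and in the renal tubular epithelial cell (TEC) table. Every mouse underwent renal ischemia/reperfusion injury (IRI), and cells were taken 24 hours after it. The animals were wild-type male C57BL/6J mice aged 8 to 12 weeks, and both renal pedicles were clamped for 35 minutes. The 4 groups were PMN after IRI with vehicle (saline), PMN after IRI with glutamine (0.5 g/kg of a glutamine dipeptide given intravenously), TECs after IRI with vehicle and TECs after IRI with glutamine, with 3 libraries each. No uninjured group was analysed here, so that every comparison is between treatments within injured mice. TECs were sorted as CD45-negative, Prominin-1-positive kidney cells, whereas how the blood neutrophils were purified and when their donors received glutamine is not given in the sources used here. The labels do not tie a library to a mouse, and p-values therefore measure only the spread between these libraries.

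Neutrophils build their granules in waves while they mature in the bone marrow. Genes of the primary (azurophil) granules are transcribed in promyelocytes, genes of secondary (specific) granules in myelocytes and metamyelocytes, and genes of tertiary (gelatinase) granules in the last stages before release. The proteins stay stored in the circulating cell, while the early transcripts are largely gone by then. Transcription factors of the C/EBP family and PU.1 are known regulators of these genes.

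The 250 bases before the annotated start were available for 9 of the 10 members from RefSeq (GRCm38.p6), the exception being Mmp9. The letters TTGCNNAA, a C/EBP core searched on both strands, occurred in 3 of these 9 sequences, and all 3 belonged to secondary granule genes (Ngp, Ltf and Mmp8), compared with 9.56% of 32851 promoters of this length. The letters GAGGAA, a PU.1 core searched on both strands, occurred in 6 of the 9 (Mpo, Elane, Prtn3, Ctsg, Ltf and Mmp8), which included all 4 primary genes, compared with 23.3% of promoters. A RUNX core, TGTGGT, was found only in Ctsg, compared with 14% of promoters. Counted back from the RefSeq start, Ngp held the C/EBP letters at -138 and -11, Ltf at -75 and Mmp8 at -19, whereas the PU.1 letters lay at -85 in Elane and at -95 in Prtn3. Starts differ between annotations, as GENCODE M21 begins the Ngp gene at base 110419747 and the Prtn3 gene at base 79874476. By these starts, the Ngp letters at -11 and the Prtn3 letters at -95 lie inside the gene. A match describes letters in a window and shows no binding. The last 150 bases before the start are shown for these 5 genes, 5′ to 3′ on the gene's strand, because they hold the C/EBP letters of the secondary genes and the PU.1 letters of both elastase-type proteases, and capitals mark the C/EBP or PU.1 letters.
Ngp, chr9:110419658-110419807, plus strand: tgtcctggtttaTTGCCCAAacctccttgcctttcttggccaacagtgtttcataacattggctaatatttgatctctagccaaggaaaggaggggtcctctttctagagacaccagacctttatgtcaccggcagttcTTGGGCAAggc
Ltf, chr9:111019142-111019291, plus strand: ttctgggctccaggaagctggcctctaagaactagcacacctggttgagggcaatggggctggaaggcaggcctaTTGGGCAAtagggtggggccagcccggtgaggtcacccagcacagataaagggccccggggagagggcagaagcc
Mmp8, chr9:7558279-7558428, plus strand: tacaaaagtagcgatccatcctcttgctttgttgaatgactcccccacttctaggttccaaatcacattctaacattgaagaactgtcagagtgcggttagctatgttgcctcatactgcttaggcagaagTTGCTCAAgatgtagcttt
Elane, chr10:79886162-79886311, plus strand: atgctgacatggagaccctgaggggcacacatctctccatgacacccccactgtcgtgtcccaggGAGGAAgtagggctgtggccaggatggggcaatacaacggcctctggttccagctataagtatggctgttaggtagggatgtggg
Prtn3, chr10:79879517-79879666, plus strand: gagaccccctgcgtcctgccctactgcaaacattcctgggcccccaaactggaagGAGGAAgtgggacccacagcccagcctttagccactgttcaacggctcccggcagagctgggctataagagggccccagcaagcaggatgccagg

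Sequencing depth and cell identity were assessed before the members were compared. The PMN libraries held 20225246 to 21878446 counts and the TEC libraries 5397370 to 10223461 counts. Despite their greater depth, the PMN libraries had counts for fewer genes, 11801 to 13580, compared with 19294 to 22223 in TEC libraries. Different PMN libraries correlated with each other at 0.481 to 0.604. Of the 10 neutrophil markers, S100a8 and S100a9, the subunits of calprotectin, led in all PMN libraries but glutamine replicate 3. The summed marker level was 30864 to 74494 counts per 1000000 of the library's counts (CPM), lowest in glutamine replicate 3. In that library Il1r2 (7634 CPM) was above S100a9 (6708 CPM) and S100a8 (6511 CPM). PMN libraries also held monocyte and macrophage markers, at a summed 3366 to 9287 CPM and highest in glutamine replicate 3. By mean level over the PMN libraries, the complement genes C1qb, C1qa and C1qc were among the 4 most abundant of these. This order did not hold in every library, as C1qc had 190.9 and Csf1r 442.6 CPM in vehicle replicate 1. Vehicle replicate 1 had 1353 CPM of tubular epithelial markers, of which Umod gave 990.3 CPM, and vehicle replicate 2 had 2274 CPM of endothelial markers, compared with at most 91.9 and 88.1 CPM in the other PMN libraries. Summed T and B cell markers were at 0.87 to 68.6 CPM. In these bulk libraries, fewer cells of a type and less RNA per cell cannot be told apart.

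The primary granule genes were low in PMN, at most 47.6 CPM, and each was found in some libraries only. Mpo, which encodes myeloperoxidase and forms hypochlorous acid, had 1005 counts in glutamine replicate 1 and 0 counts in each of the other 5 PMN libraries. Elane, neutrophil elastase, had 0, 31 and 0 counts in vehicle replicates 1 to 3 and 902, 203 and 0 counts in glutamine replicates 1 to 3. Prtn3, proteinase 3, had 605, 0 and 483 counts with vehicle, against 2, 622 and 408 counts with glutamine. Ctsg, cathepsin G, was found only in vehicle replicate 3, with 424 counts. No library held all 4 genes, and the number with any count was 1, 1 and 2 in the vehicle libraries and 3, 2 and 1 in the glutamine libraries. Glutamine replicate 1 was high for Mpo and Elane but held only 2 counts of Prtn3, which was the most abundant primary gene in 4 other libraries. A count of 0 in a PMN library allows a level of up to 0.148 CPM, and such limits cover counting error only, since reads were not collapsed to molecules.

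Both of the less abundant secondary granule genes followed the same scattered pattern. Ltf, lactoferrin, an iron-binding protein, had 0, 52 and 684 counts with vehicle, against 3, 0 and 0 counts with glutamine. Camp, the cathelicidin precursor of an antimicrobial peptide, had 0, 1 and 492 counts with vehicle, against 976, 0 and 0 counts with glutamine. For both genes, the groups overlapped. These 2 secondary and the 4 primary genes had in common that at least 1 library was at 0 while another held 100 counts or more (6 of 6). The pattern was common, as 71.1% of all 4151 genes in the PMN table within the same range of mean counts (70.7 to 353) showed it.

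**Figure D1:**
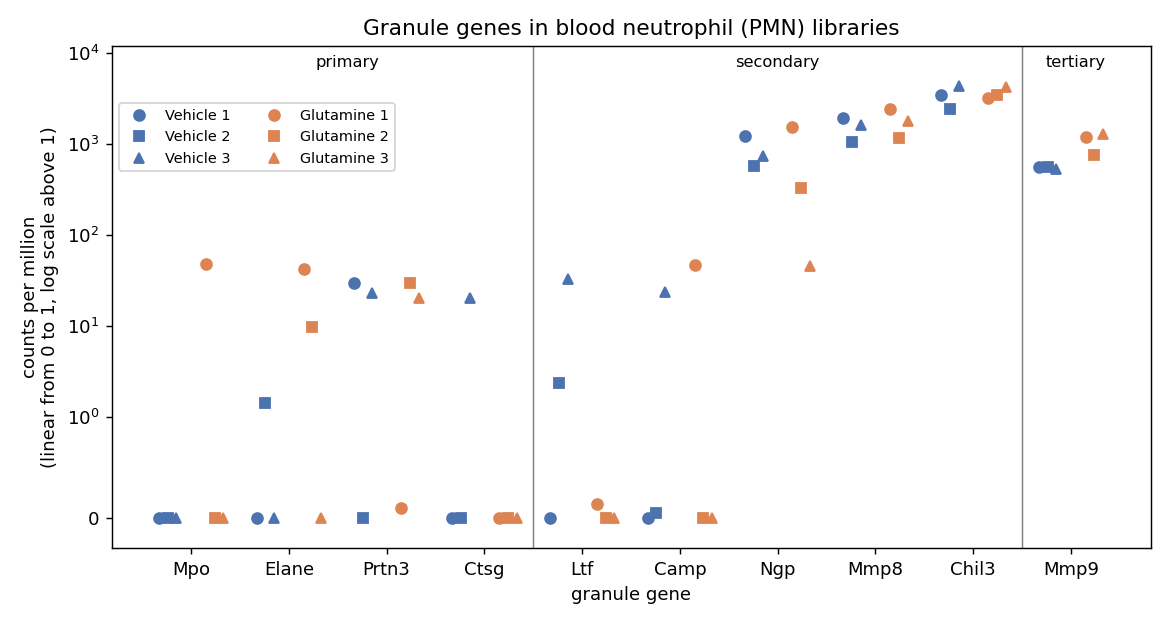
Level of each granule gene in the 6 PMN libraries, in CPM on an axis that is linear up to 1 and logarithmic above; each point is a library, coloured by treatment. The 4 primary genes, Ltf and Camp each sit at 0 in some libraries, whereas Ngp, Mmp8, Chil3 and Mmp9 are present in all 6, and only for Mmp9 do all glutamine points lie above all vehicle points.

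In contrast, 4 members were abundant in every PMN library. Chil3 (Ym1), a chitinase-like lectin stored in mouse neutrophils, had 3452, 2453 and 4365 CPM in vehicle replicates 1 to 3 and 3209, 3442 and 4291 CPM in glutamine replicates 1 to 3. Its highest level was 1.78 times its lowest, the narrowest range of the 4. Chil3 was highest in vehicle replicate 3 and glutamine replicate 3, which also had the highest summed monocyte and macrophage markers (6562 and 9287 CPM). The order did not hold throughout, as vehicle replicate 2, lowest for Chil3, had 4302 CPM and glutamine replicate 1 had 3366 CPM. Mmp8, the neutrophil collagenase, had 1942, 1054 and 1637 CPM in the vehicle libraries and 2411, 1152 and 1774 CPM in the glutamine libraries, a range of 2.29 times. Ngp, a cystatin-like granule protein, had 1216, 567.5 and 738 CPM in the vehicle libraries and 1555, 325.9 and 46.2 CPM in the glutamine libraries. Ngp was therefore the most uneven abundant member, with a highest level 33.7 times the lowest, compared with 3.19 times for S100a9 and 4.001 times for S100a8. The lowest Ngp level was in glutamine replicate 3. This library was also lowest for summed neutrophil markers (30864 CPM) and highest for summed monocyte and macrophage markers (9287 CPM). Single markers went the other way there, as Csf3r (1764 CPM) and Trem1 (2325 CPM) were at their highest and Ly6c2 (51.1 CPM) at its lowest. The part that cell make-up had in the Ngp and Chil3 levels was not tested. Mmp9, gelatinase B, had 554.5, 554.6 and 531.5 CPM in the vehicle libraries and 1209, 760.6 and 1288 CPM in the glutamine libraries.

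Levels of different genes were compared after division by the length of the longest annotated transcript, as CPM per kilobase. Chil3 was first in all 6 PMN libraries, at 1594 to 2836 CPM per kilobase, and its lowest level lay above the highest of every other member. Mmp8 followed with 434.8 to 994.1 and Ngp with 37.8 to 1272 CPM per kilobase, ranges that overlapped, and Ngp was second in vehicle replicates 1 and 2 and glutamine replicate 1. Mmp9, at 167.4 to 405.6 CPM per kilobase, lay below the range of Mmp8 but within that of Ngp, and it exceeded Ngp only in glutamine replicate 3. The ranges of the other 6 members all reached down to 0 and could not be put in order. Chil3 made up 43.0% (glutamine replicate 1) to 70.0% (glutamine replicate 3) of the members' summed level.

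The rule set primary against secondary and tertiary genes within each PMN library. In log2 units of CPM per kilobase, this balance was -7.20, -10.86 and -6.65 in vehicle replicates 1 to 3 and -6.30, -6.36 and -7.65 in glutamine replicates 1 to 3. Secondary and tertiary transcripts thus exceeded primary transcripts in all 6 libraries, with a median of 122-fold and a range from 78.8-fold to 1853-fold. Without division by length, the median balance was -7.66 instead of -6.93. The groups overlapped, since vehicle replicate 3 lay above glutamine replicate 3. Over the 6 libraries, 4685 of 851166 member counts came from primary genes. The extreme value of vehicle replicate 2 rests on 31 primary counts, all from Elane. Together, the 10 genes took 0.463% to 0.852% of all PMN counts.

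**Figure D2:**
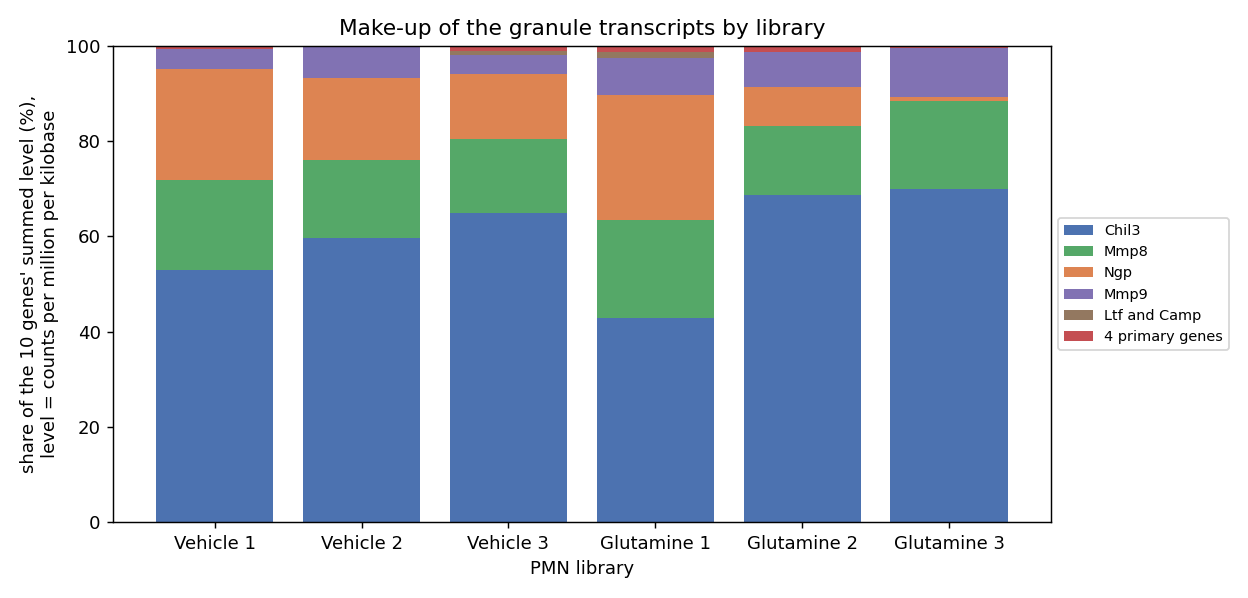
Share of each gene or gene group in the summed level of the 10 granule genes (CPM per kilobase, in percent), 1 bar for each PMN library. Chil3 is the largest part of every bar, from 43.0% to 70.0%, the Ngp part is thinnest in glutamine replicate 3, and the 4 primary genes form a thin band at most.

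Whether glutamine altered granule transcripts in blood neutrophils after IRI was addressed next. In the quasi-likelihood test of edgeR, adjusted after Benjamini and Hochberg, 0 of 10130 tested genes had an adjusted p below 0.05, while 346 (3.42%) had an unadjusted p below 0.05. DESeq2 called 309 genes and limma-voom 0. In all, 6 members passed the filter on low counts (Elane, Prtn3, Ngp, Mmp8, Chil3 and Mmp9), and 0 members were called by any of the 3 tools, with 1 member, Mmp9, at an unadjusted p below 0.05 in edgeR's test. The mean Mmp9 level was 546.9 ± 13.3 CPM (SD, n = 3) in the vehicle group and 1086 ± 284 CPM in the glutamine group. The log2 fold change was 1.04 (SE 0.29) with an adjusted p of 0.852 in edgeR's test. The lowest glutamine library still lay above the highest vehicle library, which held for 1 of the 6 tested members and for 5.63% of all tested genes. In either direction, 10.5% of all tested genes had groups that did not overlap. An exact two-sided permutation test of the Mmp9 levels gave p = 0.1, the smallest value that 3 libraries against 3 allow. Any gene whose groups do not overlap gets this value, so that the test adds nothing to the order of the libraries. Ptprc, the pan-leukocyte gene encoding CD45, was also higher in all 3 glutamine libraries (883.7 ± 231 compared with 479.4 ± 141 CPM), as were the neutrophil markers Il1r2 (8591 ± 926 compared with 6491 ± 202 CPM) and Trem1 (2073 ± 347 compared with 1396 ± 70.4 CPM). These were 2 of 10 neutrophil markers, of which 7 had a positive and 3 a negative log2 fold change (S100a8, Ly6g and Retnlg), and S100a8 averaged 15852 ± 9792 CPM with glutamine compared with 18969 ± 6742 CPM. Summed T and B cell markers (30.1 to 68.6 compared with 0.87 to 20.6 CPM) were likewise higher in every glutamine library. So were summed eosinophil, basophil and mast cell markers (2750 to 3444 compared with 1967 to 2680 CPM), which were almost all Hdc. Hdc was the only 1 of these 10 genes that was tested, and 5 of the 10 were at 0 in every PMN library. The macrophage gene Csf1r was also higher in every glutamine library (453.4 to 986.3 compared with 263.9 to 442.6 CPM). Csf1r was the only 1 of 10 monocyte and macrophage markers with this order, 6 of them had a positive and 4 a negative log2 fold change, and their summed level overlapped (3366 to 9287 compared with 3438 to 6562 CPM). The part of cell make-up in the Mmp9 difference was not tested.

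**Figure D3:**
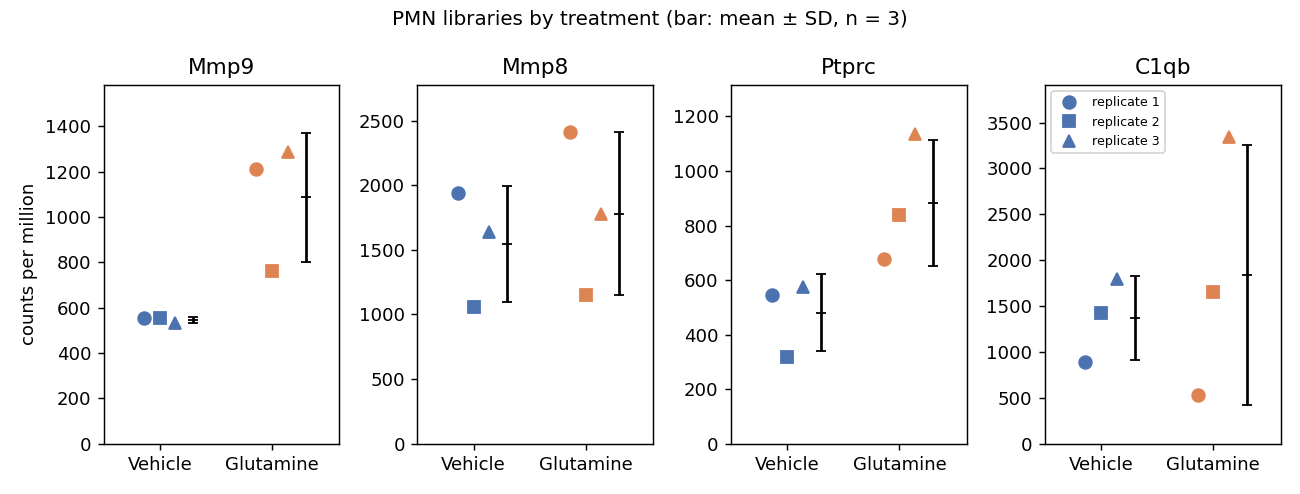
Mmp9, Mmp8, Ptprc and C1qb in PMN by treatment, in CPM on axes that start at 0; points are libraries and bars show mean ± SD (n = 3). For Mmp9 and Ptprc the glutamine libraries lie above all vehicle libraries, whereas Mmp8 and C1qb overlap between treatments.

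The other members did not differ beyond their spread. The log2 fold change with glutamine was 0.13 (SE 0.24) for Chil3, 0.26 (SE 0.37) for Mmp8 and -0.29 (SE 1.07) for Ngp. None of the 3 directions was stable when 1 library was left out. Ngp went from -2.23 (without glutamine replicate 1) to 0.24 (without glutamine replicate 3, the library at 46.2 CPM), Mmp8 went to -0.12 without glutamine replicate 1, and Chil3 went to -0.076 without vehicle replicate 2. Elane and Prtn3 had standard errors of 3.38 and 2.47 on the log2 scale, so that their fold changes of 5.32 and -0.09 carry little information. Mpo, Ctsg, Ltf and Camp did not pass the filter, and their groups overlapped.

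Other granule cargo was examined as a list of 20 genes, of which 18 were in the PMN table and 15 were tested. None had an adjusted p below 0.05 in edgeR's test, and 1 (Ctsd) had an unadjusted p below 0.05. Lyz2, lysozyme, led this list at 3671 ± 1234 CPM under vehicle, against 2920 ± 569 CPM under glutamine (SD, n = 3). Lcn2, lipocalin-2, which is stored in secondary granules, had 1141 ± 286 and 1556 ± 266 CPM, and Hp, haptoglobin, had 1260 ± 95.2 and 1465 ± 179 CPM. Ctsd, the lysosomal protease cathepsin D, had 1202 ± 108 and 1837 ± 390 CPM, with a log2 fold change of 0.64 (SE 0.21, adjusted p = 1.0 by edgeR). In 4 of the 15 genes (Hp, Chil1, Mmp25 and Ctsd) all glutamine libraries lay above all vehicle libraries, compared with 5.63% of tested genes, and in 1 (Olfm4) they lay below, compared with 4.91%. Of these, Mmp25, which encodes the membrane-anchored matrix metalloproteinase leukolysin, was singled out after its values were seen. Mmp25 had 3.58, 2.38 and 0.87 CPM in the vehicle libraries and 23.3, 15.4 and 23.9 CPM in the glutamine libraries, and DESeq2 gave it an adjusted p of 0.00531 whereas edgeR gave 1.0. The median log2 fold change of the 15 genes was 0.40, beside 0.0002 for all genes tested.

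Of the genes that process, sort or release granule contents, 12 of 12 were tested in PMN, although Ap3b1 and Vps13b were each at 0 in 1 library, with 0 at an adjusted p below 0.05 (1 at an unadjusted p below 0.05, Lyst). Srgn, the proteoglycan core that packs granule proteins, had 6684 ± 609 CPM under vehicle, against 7730 ± 1850 CPM under glutamine. Ctsc, which activates the granule serine proteases, had 507.4 ± 192 and 750.4 ± 381 CPM. Lyst, also singled out after its values were seen and known as the Chediak-Higashi regulator of lysosome-related organelle size, had 88.4, 90.5 and 51.4 CPM in the vehicle libraries and 439.3, 330.8 and 237.9 CPM in the glutamine libraries. The groups did not overlap for 2 of the 12 genes, beside 10.5% of all tested genes, with Lyst higher and Stxbp2, a syntaxin-binding protein of granule release, lower with glutamine (183.0 ± 21.7 compared with 251.8 ± 17.7 CPM). For Lyst, the log2 fold change was 2.18 (SE 0.46), with an adjusted p of 0.713 in edgeR's test and 0.0243 in DESeq2. Among 9 tested inhibitors of granule proteases, 0 had an adjusted or an unadjusted p below 0.05 in edgeR's test, and the groups overlapped for every tested inhibitor. Slpi, the secretory leukocyte protease inhibitor, had 931.9 ± 197 and 676.3 ± 241 CPM. The median log2 fold change was 0.21 for the 12 processing genes (7 positive, 5 negative) and -0.41 for the 9 inhibitors (3 positive, 6 negative).

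Receptors carried by secretory vesicles and the cell membrane were tested for 10 of 12 genes, with 0 at an adjusted or an unadjusted p below 0.05 in edgeR's test. Of the regulators of granule formation, 8 of 12 were tested and 0 had an adjusted or an unadjusted p below 0.05. The groups did not overlap for 1 of 10 receptors (Itgb2) and 1 of 8 regulators (Klf6), both higher with glutamine, beside 10.5% of all tested genes. The median log2 fold change was 0.15 for the receptors and 0.34 for the regulators. Csf3r, the G-CSF receptor, had 873.3 ± 279 CPM under vehicle, against 1291 ± 411 CPM under glutamine. Cebpe, a factor of the secondary granule stage, had 1 count in the 6 PMN libraries, and Gfi1 had 0 counts. Among 10 early neutrophil and cycling markers, which summed to 405.2 to 717.7 CPM, Tuba1b and Hmgb2 gave most of the sum. Both were present in every library at 2041 counts or more. Mki67, a proliferation marker, had 2511, 441 and 296 counts with vehicle, against 1108, 6 and 0 counts with glutamine. Top2a, Birc5 and Ube2c each had more than 6 counts in 1 library only, at 248, 388 and 430 counts. Ms4a3, a gene of early granulocyte precursors, had 4 counts in all. Cebpe, Gfi1, Ms4a3, Top2a, Birc5 and Ube2c were named after their values were seen.

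Some members have close relatives, and the sharing of read-length windows was computed for Chil3 and Chil4 only. Chil3 and Chil4 shared 95.4% of 1194 aligned coding bases (GENCODE M21), and 18.5% of the 50-base windows in the Chil3 transcript, the length of a read, also occurred in Chil4. The coding stretch with most differences, bases 510 to 559 in both genes, is shown to make visible how a read can tell the genes apart, with the 10 differing bases in capitals.
Chil3: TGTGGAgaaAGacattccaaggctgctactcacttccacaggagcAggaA
Chil4: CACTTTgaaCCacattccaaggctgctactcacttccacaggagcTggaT
Chil4 had 0, 1 and 1 PMN counts with vehicle, against 12, 2 and 1 counts with glutamine, whereas Chil3 had at least 53673 counts in each. Among the relatives of the other members, Epx, Lpo, Gzmb, Cma1, Mcpt8 and Mmp3 were at 0 in the PMN libraries. Trf, the lactoferrin relative transferrin, had 508.7 to 1851 CPM, and Mmp12, macrophage elastase, had 2.86 to 279 CPM.

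In TECs, granule transcripts were found at trace level. The 10 members together had 442 counts in the 6 libraries, and their summed level was 15.6, 4.50 and 2.41 CPM in vehicle replicates 3 to 5 and 9.22, 18.9 and 4.73 CPM in glutamine replicates 1 to 3. The exact 95% Poisson interval was 13.1 to 18.3 CPM for vehicle replicate 3 and 15.4 to 22.9 CPM for glutamine replicate 2, and these libraries were above the others. The median was 6.98 CPM, beside 7282 CPM in PMN. Both values are set side by side without a test, because cell type cannot be told apart from the separate tables and library preparation.

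The same 4 members that were abundant in PMN supplied most of the trace. Chil3 had 71, 8 and 6 counts in the vehicle and 25, 43 and 18 counts in the glutamine TEC libraries. Mmp8 had 32, 8 and 1 counts with vehicle and 26, 30 and 21 counts with glutamine, Mmp9 had 12, 21 and 4 counts and 23, 19 and 6 counts, and Ngp had 17, 4 and 4 counts and 6, 9 and 0 counts. Groups overlapped for all 4 genes. The TEC median was 0.0687% of the PMN median for Chil3, 0.0838% for Ngp, 0.151% for Mmp8 and 0.255% for Mmp9. Of the 10 neutrophil markers, S100a8, S100a9, Retnlg, Clec4d and Trem1 lay between these values, at 0.123% to 0.196%. Ly6g was above them at 0.276%, Csf3r (0.0673%) and Il1r2 (0.0432%) were below, Mrgpra2b had a TEC median of 0, and Cxcr2 was at 10.04%. S100a8 was likewise highest in glutamine replicate 2 (98.4 CPM) and vehicle replicate 3 (74.5 CPM), the libraries with most granule counts, and lowest in vehicle replicate 5 (6.73 CPM). Neutrophil RNA carried into the sort was not tested as the source of the trace. Other granule cargo was not confined to trace level in TECs. Lcn2, which injured tubules are known to express, had 685.2 to 3941 CPM and a TEC median of 116% of the PMN median, and the widely expressed lysosomal and membrane genes Cd63, Ctsd and Cyba had 131%, 72.1% and 40.2%.

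**Figure D4:**
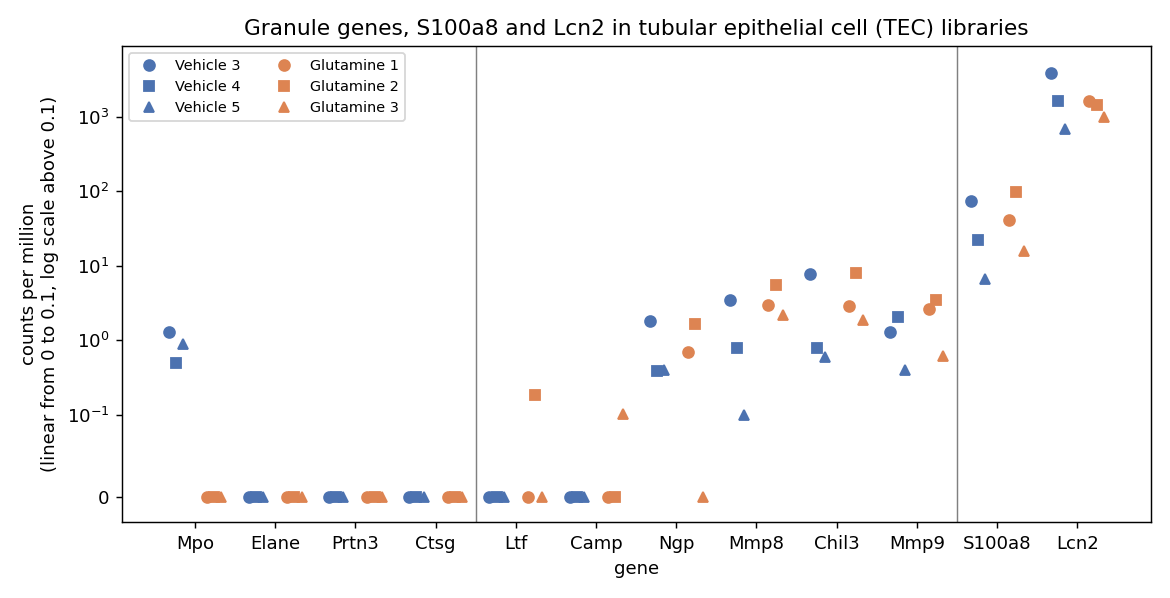
Granule genes, S100a8 and Lcn2 in the 6 TEC libraries, in CPM on an axis that is linear up to 0.1 and logarithmic above; each point is a library, coloured by treatment. Elane, Prtn3 and Ctsg are at 0 in every library, Mpo is present in the 3 vehicle libraries only, and Chil3, Mmp8, Ngp and S100a8 are highest in vehicle replicate 3 and glutamine replicate 2.

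Mpo was counted only in the vehicle libraries of TECs. Mpo had 12, 5 and 9 counts in vehicle replicates 3 to 5 and 0 counts in each of the 3 glutamine libraries. The vehicle group thus held 26 Mpo counts among 29431868 and the glutamine group 0 among 23796141, and no fold is given for so few counts. A count of 0 allows up to 0.308 to 0.556 CPM in the single glutamine libraries, and the lowest vehicle library, replicate 4 at 0.489 CPM, lies within that limit for glutamine replicate 2, the shallowest library. The exact two-sided permutation test gave p = 0.1, the smallest possible value, which any gene whose groups do not overlap gets. Groups failed to overlap for 21% of the tested TEC genes, and all glutamine libraries lay below all vehicle libraries for 15.4%. Mpo did not pass the filter on low counts, and without the filter edgeR's test gave it an adjusted p of 0.304. The other primary genes, Elane, Prtn3 and Ctsg, had 0 counts in all 6 TEC libraries, which allows up to 0.293 to 0.556 CPM in a library. Neutrophil RNA carried into the sort was not tested as a source of Mpo either. Ltf and Camp each had 1 count in a single glutamine library. Lpo, the Mpo relative lactoperoxidase, had 9, 9 and 4 counts with vehicle and 19, 4 and 2 counts with glutamine.

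The glutamine comparison within TECs called 0 of 14734 genes at an adjusted p below 0.05 in edgeR's quasi-likelihood test, while 1878 (12.7%) had an unadjusted p below 0.05. DESeq2 called 246 genes and limma-voom 0. In TECs, 3 members passed the filter, and 0 of them had an adjusted or an unadjusted p below 0.05 in edgeR's test, and 0 members were called by DESeq2 or limma-voom. The log2 fold change was 1.50 (SE 0.95, adjusted p = 0.528) for Mmp8, 1.02 (SE 0.87, adjusted p = 0.653) for Mmp9 and 0.68 (SE 0.93, adjusted p = 0.792) for Chil3. Leaving out 1 library gave 0.96 to 3.13 for Mmp8 and 0.55 to 1.56 for Mmp9. Chil3 ranged from -0.16 without glutamine replicate 2, where its direction turned, to 2.72 without vehicle replicate 3. Of the other granule cargo, 12 of 20 genes were tested in TECs with 0 at an adjusted p below 0.05 and 1, Lyz2, at an unadjusted p below 0.05. Lyz2 had 1.89 ± 0.86 CPM under vehicle, against 6.48 ± 4.34 CPM under glutamine, and its groups did not overlap, whereas for Cd63 all glutamine libraries lay below all vehicle libraries (874.7 ± 52.3 compared with 1044 ± 115 CPM). These 2 of 12 genes stand beside 21% of all tested TEC genes whose groups did not overlap. Of 11 tested processing genes, 3 (Stxbp2, Vamp8 and Vps13b) lay lower in every glutamine library, compared with 15.4% of tested TEC genes. Among 7 tested inhibitors, Slpi lay higher and Cstb lower in every glutamine library. Receptors (9 tested) and regulators (6 tested) had 1 such gene each, Cr1l and Runx1, both lower. No gene of these lists had an adjusted p below 0.05 in edgeR's test. Ptprc, whose product CD45 was selected against in the sort, had 15, 17 and 1 counts with vehicle and 19, 9 and 25 counts with glutamine. In CPM it was also higher in all 3 glutamine libraries (1.67 to 2.57 compared with 0.10 to 1.66 CPM), an order that 5.63% of tested TEC genes had. The gap was narrow, at 1.667 CPM in glutamine replicate 2, the shallowest library, beside 1.663 CPM in vehicle replicate 4. Of 7 tested neutrophil markers in TECs, 6 had a positive and 1 a negative log2 fold change, with 2 higher at an unadjusted p below 0.05 in edgeR's test. Of 7 tested monocyte and macrophage markers, 5 were positive and 2 negative. The part of leukocyte RNA in the Mmp8, Mmp9, Chil3 and Lyz2 differences was not tested.

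Genes with a profile most like that of the members were sought over the 6 PMN libraries on log2 CPM. The mean profile of Ngp, Mmp8, Chil3 and Mmp9 was most like those of Maff, Gm9894, Prdx5, Ndufb6 and Stfa2l1, with Pearson r of 0.97 to 0.98. The members themselves correlated with their own mean at 0.82 (Ngp), 0.77 (Mmp8), 0.17 (Mmp9) and 0.11 (Chil3), so that this profile mostly follows Ngp and Mmp8. For Elane and Prtn3, the closest genes were Kcnq1ot1, Zfp113, Gm44851, D130020L05Rik and Xrcc3 (r of 0.98 to 0.99), while either member correlated with the mean at 0.46. These values describe 6 points that share library and depth, picked as the highest among 10130 genes.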

How the data were processed

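RNA from blood neutrophils and sorted TECs was reverse-transcribed from the polyA tail and, per the labels, read as single 50-base ends. Per the submitters' processing notes, reads were trimmed (Trim Galore 0.6.4) and quantified with Salmon 1.0.0 on mm10, and the annotation release is not given in the sources used here. The authors deposited estimated counts per gene for both cell types. The deposited PMN table is of another notation, because a spreadsheet had inserted points into 3.20% of its cells and turned 0.391% into dates, and it was decoded to estimated counts here without an undamaged copy to compare with. Each PMN library had 2 columns (correlation 0.994 to 0.996, beside 0.481 to 0.604 between different PMN libraries), which were averaged. The names of both columns differ only in a final 1 or 2, whose meaning is not given in the sources used here. Counts were rounded. Library totals ranged from 5397370 (TEC) to 21878446 (PMN) counts. Within each cell type, edgeR 4.0.16 (TMM, filterByExpr, quasi-likelihood test, Benjamini-Hochberg) compared glutamine with vehicle. DESeq2 1.42.0 and limma-voom (limma 3.58.1), other scalings, filters, single columns and left-out libraries were alternatives. CPM used library totals, and lengths came from GENCODE M21. The script was tested on simulated data. The members and lists were chosen with earlier results of these data known. All members were named, and of other lists up to 4 genes with the highest mean CPM, and the 5 genes most like each profile. Genes outside this rule (such as Olfm4, Stxbp2, Trem1, Csf1r, Mmp25, Lyst and Cebpe) were named after their values were seen.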

Additional observations from a re-analysis of the deposited data

How the results depend on the processing

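Of 186 alternatives computed, 171 kept direction and side of the threshold, 5 moved a count of called genes and 10 turned the direction of a fold change, and 0 members were called under any alternative that tested members. With at least 10 counts required in every TEC library, no member was left to test. For PMN, DESeq2 called 309 genes, compared with 0 in edgeR's test, and the counts without each replicate were 0 to 0. For TECs, DESeq2 called 246 genes, edgeR without the filter 425, and leaving out 1 replicate gave 0 to 36 genes, with 4 without vehicle replicate 5 and 36 without glutamine replicate 2. The causes were not tested. The direction turned for members whose fold change was smaller than its standard error. Prtn3 in PMN went to 0.82 with limma-voom, 0.50 without vehicle replicate 1, 0.12 without vehicle replicate 3 and 0.46 without glutamine replicate 1. Ngp in PMN went to 0.09 without vehicle replicate 1, 0.03 without glutamine replicate 2 and 0.24 without glutamine replicate 3. Mmp8 in PMN went to -0.12 without glutamine replicate 1, Chil3 in PMN to -0.076 without vehicle replicate 2, and Chil3 in TECs to -0.16 without glutamine replicate 2. With limma-voom, Ngp in PMN went to -1.46, Elane in PMN to 4.57 and Mmp8 in TECs to 2.15, with 0 calls. Over the fits without 1 replicate, the log2 fold change in PMN was -0.865 to 0.50 for Prtn3, -2.23 to 0.24 for Ngp, -0.12 to 0.478 for Mmp8, -0.076 to 0.312 for Chil3, and 3.34 to 11.58 for Elane (11.58 without vehicle replicate 2). In TECs it was -0.16 to 2.72 for Chil3, 0.96 to 3.13 for Mmp8 (highest without vehicle replicate 3) and 0.55 to 1.56 for Mmp9 (lowest without glutamine replicate 2 and highest without vehicle replicate 4), with 0 calls. The log2 fold change of Mmp9 in PMN was 0.87 to 1.22 when 1 replicate was left out. Without Prtn3 and Chil3, the most abundant of each class, 2 PMN libraries had no primary count, so that no balance could be given for them. The median balance of primary to secondary and tertiary genes moved from -6.93 to -7.66 without division by length, which is over 1.5 times on the linear scale, and was -7.24 with mean transcript lengths and -7.20 to -6.65 when 1 replicate was left out. In TECs, at most 71 counts stood behind any member in a library, which limits what can be detected. No paired analysis was possible because PMN libraries carry no replicate number in their labels and the TEC groups share only the number 3.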
